A study of Mus with 7 samples.

Results

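The NRF2, glutathione and thioredoxin genes described here were 10 genes taken by their symbols from the 31053 genes in the files, each of which matched 1 row. They were *Nfe2l2*, *Keap1*, *Gclm*, *Gclc*, *Slc7a11*, *Gsr*, *Txnrd1*, *Srxn1*, *Prdx1* and *Nqo1*. Droplet single-cell RNA sequencing had been run on fetal liver-derived macrophages (FLMs), self-renewing cells grown from livers of wild-type C57BL/6J mouse fetuses and kept in 30 ng/mL GM-CSF in every condition. There were 7 libraries, 1 per condition. Con was kept untreated in 10% FBS. The other 6 libraries had been held in 0.25% FBS for 24 h, either with the carrier bovine serum albumin alone at 8.3 µM (Veh) or with 25 µM of the omega-3 fatty acid docosahexaenoic acid (DHA) bound to it, and had then received 20 ng/mL of lipopolysaccharide (LPS), a bacterial cell wall component that triggers TLR4, for 0, 1 or 4 h. The comparisons addressed what DHA, LPS and the change of serum did to these transcripts. The cells were a culture expanded in GM-CSF, so they stand for a macrophage model and not for a resident population of the liver.

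NRF2, the product of *Nfe2l2*, is a transcription factor that KEAP1 holds in the cytoplasm and passes to degradation. Oxidants and electrophiles, among them products of oxidised polyunsaturated fatty acids, modify KEAP1, and NRF2 then accumulates and switches on genes of antioxidant defence. Its targets include the enzymes that make and recycle glutathione and those that keep thioredoxin and the peroxiredoxins reduced, systems on which macrophages rely while they produce oxidants themselves.

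Cells were kept with over 20000 UMIs (transcript molecules counted once), at least 2000 genes and under 20% of UMIs from mitochondrial genes, which left 692 to 3073 cells and 22045775 to 125716982 UMIs per library, with a median of 29369 to 56239 UMIs per cell. Barcodes with at least 20% mitochondrial UMIs made up 29.0% to 54.7% of the barcodes in Con and Veh and 74.4% to 80.0% in DHA. All 9 macrophage markers had UMIs in every library, with a summed level of 5817 to 7089 CPM (UMIs of a gene per 1e6 UMIs of the library), while the 8 hepatocyte markers summed to at most 7.88 CPM with *Alb*, *Ttr* and *Serpina1a* at 0. The hepatocyte marker *Afp* stood at 5.45 to 7.54 CPM, with a UMI in 10.4% to 18.4% of kept cells. The 7 neutrophil markers summed to at most 7.53 CPM with *S100a9*, *Ly6g* and *Ltf* at 0. *S100a8* among them ran from 0.0571 CPM in DHA at 0 h (0.287% of cells) to 6.99 CPM in DHA at 4 h (9.39%). Erythroid, mast cell, stromal, lymphoid and endothelial markers each summed to under 0.71 CPM. With 1 library per condition no test between conditions was possible. Intervals in parentheses are 95% intervals for counting error alone, and a gene was counted as past the size limit when its CPM differed by over 1.5-fold and it was detected in 50% or more of the cells in one or both libraries.

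Of the 10 genes 9 were well covered, and in the kept cells 7 of them stood higher with DHA than with Veh at 0, 1 and 4 h. These 7 were *Gclm*, *Gclc*, *Slc7a11*, *Gsr*, *Txnrd1*, *Srxn1* and *Prdx1*, with ratios of DHA to Veh between 1.14 and 1.78, and no interval of theirs reached 1. Over all tested genes in the kept cells the median log2 ratio was -0.04, -0.05 and 0.06 at 0, 1 and 4 h. At 4 h more of all tested genes thus stood above Veh than below it, and *Slc7a11*, at 1.14 times Veh, ranked 1361st from the top of 5579. Over all barcodes without the filter, the totals included many more mitochondrial UMIs. *Gclc*, *Gsr* and *Prdx1* there each stood below Veh with DHA at 1 or 2 of these hours. The median log2 ratio of all tested genes was below 0 there too, at -0.28, -0.32 and -0.21 at 0, 1 and 4 h. Among kept cells with under 5% mitochondrial UMIs the ratios of *Gclc*, *Gsr* and *Slc7a11* were below 1 at some of these hours. Of these only that of *Gclc* at 0 h had an interval clear of 1 (0.522 to 0.883). The transcripts of NRF2 itself and of its inhibitor KEAP1 differed by at most 1.13-fold between DHA and Veh. With LPS the genes did not move together, since *Slc7a11*, *Txnrd1*, *Srxn1* and *Prdx1* were past 1.5-fold higher at 4 h and *Keap1* and *Gsr* lower. Of all tested genes 11.4% were higher and 32.6% lower at 4 h in Veh, and 9.89% and 29.3% in DHA. The 2 lower genes of 9 thus do not exceed the share of all genes. With another scaling, given below, *Keap1* in both arms and *Gsr* in DHA came within the limit.

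*Nfe2l2*, which encodes NRF2 (chromosome 2, 75675513 to 75704663, mm10), was the steadiest of the 10. It stood at 85.6 CPM in Con, with Veh at 89.1, 93.7 and 75.1 CPM after 0, 1 and 4 h of LPS and with DHA at 88.4, 98.4 and 85.1 CPM. The highest and lowest libraries were 1.31-fold apart, and the intervals of Veh at 0 h, DHA at 0 h and Con each overlapped the next in the order. With every cell thinned at random to 20000 UMIs, so that depth was equal, 75.8% to 83.7% of cells held a *Nfe2l2* UMI (89.9% to 96.3% unthinned). *Nfe2l2* with DHA was 0.993 times Veh at 0 h (0.952 to 1.03) and 1.13 times Veh at 4 h (1.07 to 1.19).

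*Keap1* (chromosome 9, 21229730 to 21239332), the adaptor through which NRF2 is marked for degradation, was at 58.5 CPM in Con, at 49.7, 37.7 and 26.3 CPM in Veh and at 47.0, 35.5 and 28.6 CPM in DHA. The level was lower at each later hour of LPS in both arms, and the intervals of Veh and DHA overlapped at every hour. At 4 h it was 0.530 times its 0 h level in Veh (0.500 to 0.561) and 0.609 times in DHA (0.555 to 0.668). Both ratios passed the size limit, and neither did after TMM scaling, an adjustment for the bulk of genes, with log2 ratios of -0.48 and -0.42 in place of -0.92 and -0.72. TMM lifted the log2 ratios of 4 h to 0 h by 0.43 in Veh and 0.30 in DHA, and the median log2 ratio of all genes in that comparison of Veh was -0.28 before it and 0.15 after. The share of thinned cells with a *Keap1* UMI went from 62.3% to 40.9% in Veh and from 58.2% to 42.9% in DHA between 0 and 4 h (unthinned 81.5% to 70.5% and 85.7% to 54.8%).

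Glutathione is made from cysteine, glutamate and glycine, and the first step is catalysed by glutamate-cysteine ligase, whose modifier subunit is GCLM and whose catalytic subunit is GCLC. *Gclm* (chromosome 3, 122245487 to 122267215) was at 198 CPM in Con, at 75.1, 84.3 and 79.6 CPM in Veh and at 127, 119.6 and 141 CPM in DHA. Con was highest, the 3 DHA libraries followed, and every Veh library lay below every DHA library. *Gclm* with DHA was 1.70 times Veh at 0 h (1.63 to 1.76), 1.42 times at 1 h (1.36 to 1.47) and 1.78 times at 4 h (1.70 to 1.86), which placed it 27th from the top among 6276 genes at 0 h, 86th of 5404 at 1 h and 21st of 5579 at 4 h. With LPS *Gclm* stood at 0.939 to 1.12 times its 0 h level in the 2 arms on the CPM scale. With TMM scaling its log2 ratio of 4 h to 0 h was 0.51 in Veh and 0.45 in DHA, in place of 0.08 and 0.15. In thinned cells 71.3%, 74.3% and 66.6% held a *Gclm* UMI in Veh and 86.0%, 83.0% and 82.8% in DHA (unthinned 88.0%, 84.6% and 91.9% against 97.1%, 93.1% and 92.8%).

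*Gclc* (chromosome 9, 77754535 to 77794489) was at 74.0 CPM in Con, at 47.8, 65.5 and 35.1 CPM in Veh and at 55.6, 80.4 and 45.7 CPM in DHA. Both arms were highest at 1 h and lowest at 4 h on this scale. TMM scaling moved the log2 ratio of 4 h to 0 h from -0.45 to -0.01 in Veh and from -0.28 to 0.02 in DHA. The ratio of DHA to Veh for *Gclc* was 1.16 (1.10 to 1.23), 1.23 (1.17 to 1.28) and 1.30 (1.21 to 1.40) at the 3 hours, smaller than that of *Gclm* each time. No *Gclc* ratio between LPS and 0 h passed the size limit, the largest being 1.45 at 1 h with DHA (1.36 to 1.53), though with TMM scaling that ratio did pass it at a log2 value of 0.64.

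*Slc7a11* (chromosome 3, 50364936 to 50499087) encodes xCT, the cystine importer that feeds glutathione synthesis, and it had the widest range of the 10. It was at 34.2 CPM in Con, at 28.4, 82.5 and 262 CPM in Veh and at 39.2, 108 and 298 CPM in DHA. The order followed the hours of LPS, with DHA above Veh within each hour. LPS took *Slc7a11* to 2.91 times its 0 h level at 1 h in Veh (2.79 to 3.04) and to 9.25 times at 4 h (8.88 to 9.63), and to 2.77 and 7.61 times in DHA (7.17 to 8.07 at 4 h). The ratio of DHA to Veh narrowed from 1.38 at 0 h (1.29 to 1.47) to 1.31 at 1 h (1.26 to 1.37) and 1.14 at 4 h (1.10 to 1.17). With TMM scaling the log2 ratio at 4 h was 0.06 in place of 0.18. In thinned cells 34.7% held a *Slc7a11* UMI in Veh and 45.3% in DHA at 0 h, against 94.5% and 96.7% at 4 h (unthinned 51.3% and 68.6%, then 99.5% and 98.3%), and the median cell went from 0 to 5 UMIs in Veh and from 0 to 6 in DHA. The 3 genes whose pattern over the 7 libraries lay closest, by the root mean square difference of centred log2 CPM among 7297 genes, were *Plaur*, the urokinase receptor (0.21), *Rab11fip1* (0.27) and *Clec4e*, a pattern recognition receptor (0.32). At 4 h *Plaur* was lower with DHA than in Veh, at 494 against 631 CPM. *Rab11fip1* was then at 60.6 against 58.8 CPM and *Clec4e* at 1751 against 1211 CPM.

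*Gsr* (chromosome 8, 33653238 to 33698162), the reductase that returns oxidised glutathione to its reduced form, was at 137 CPM in Con, at 74.7, 65.9 and 35.4 CPM in Veh and at 97.6, 80.0 and 55.8 CPM in DHA. It was lower at each later hour of LPS, and DHA was above Veh each time. *Gsr* with DHA was 1.31 times Veh at 0 h (1.25 to 1.36), 1.21 times at 1 h (1.16 to 1.27) and 1.58 times at 4 h (1.47 to 1.69). The 4 h value passed the size limit, though with TMM scaling its log2 ratio was 0.54 in place of 0.66 and no longer did. Between 0 and 4 h *Gsr* went to 0.474 times its level in Veh (0.451 to 0.497) and 0.571 times in DHA (0.535 to 0.610), and the DHA ratio no longer passed after TMM scaling (log2 ratio -0.51 in place of -0.81).

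Thioredoxin reductase, sulfiredoxin and peroxiredoxin form a relay in which peroxiredoxins destroy peroxides, sulfiredoxin repairs peroxiredoxins that have been over-oxidised, and thioredoxin reductase supplies the electrons. *Txnrd1* (chromosome 10, 82833951 to 82897724), the cytosolic thioredoxin reductase, was at 244 CPM in Con, at 97.6, 231 and 242 CPM in Veh and at 118, 265 and 311 CPM in DHA. It was lowest in both libraries at 0 h, and the intervals of Con and Veh at 4 h overlapped. In Veh, LPS took *Txnrd1* to 2.37 times its 0 h level at 1 h (2.32 to 2.43) and 2.48 times at 4 h (2.42 to 2.55), and in DHA to 2.25 and 2.64 times. DHA stood at 1.21, 1.15 and 1.28 times Veh at 0, 1 and 4 h, all within the size limit.

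*Srxn1* (chromosome 2, 152105524 to 152111376), which encodes sulfiredoxin, was at 22.7 CPM in Con, at 16.8, 47.9 and 45.6 CPM in Veh and at 26.8, 66.6 and 77.7 CPM in DHA. DHA was above Veh at each hour, and both arms were higher with LPS. *Srxn1* with DHA was 1.60 times Veh at 0 h (1.47 to 1.73), 1.39 times at 1 h (1.32 to 1.46) and 1.70 times at 4 h (1.60 to 1.81), 42nd of 6276 genes at 0 h and 26th of 5579 at 4 h. LPS took it to 2.86 and 2.72 times its 0 h level in Veh at 1 and 4 h and to 2.49 and 2.90 times in DHA. The thinned share of cells with a *Srxn1* UMI was 25.4%, 49.4% and 40.8% in Veh and 35.4%, 57.7% and 60.7% in DHA (unthinned 41.8%, 61.2% and 66.3% against 62.8%, 75.8% and 73.0%). No cell type that should lack these genes was present in the libraries, so the share that free RNA could give was not measured.

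*Prdx1* (chromosome 4, 116685599 to 116700000), the cytosolic peroxiredoxin 1, had UMIs in 100% of thinned cells of every library. It was at 1212 CPM in Con, at 901, 933 and 2174 CPM in Veh and at 1224, 1339.9 and 2652 CPM in DHA. The 1 h libraries stood near the 0 h ones and the 4 h libraries stood above all others. LPS for 4 h took *Prdx1* to 2.41 times its 0 h level in Veh (2.39 to 2.43) and 2.17 times in DHA (2.14 to 2.19), whereas 1 h gave 1.03 and 1.09 times. DHA was at 1.36, 1.44 and 1.22 times Veh at 0, 1 and 4 h. *Smox*, which encodes spermine oxidase, had the most similar pattern over the 7 libraries with a difference of 0.11 on the log2 scale, followed by *Hipk1* and *Slc11a1* (0.15 each).

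*Nqo1* (chromosome 8, 107388225 to 107403205), a quinone reductase often used as a readout of NRF2, was barely detected. Its UMIs numbered 12 in Con, with Veh at 0, 4 and 8 and DHA at 1, 4 and 5 after 0, 1 and 4 h, and no level exceeded 0.227 CPM. In Veh at 0 h, 0 of 2481 cells held a UMI, which allows a share of up to 0.121% by a limit of 3 counts, and no library had over 0.723% of cells with one. With UMIs this few, no fold is given for *Nqo1*.

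In the comparison of DHA with Veh, 9 of the 10 genes met the limit on the share of cells at every hour, and the counts past 1.5-fold were as follows. At 0 h 2 genes were higher (*Gclm* and *Srxn1*) and 0 lower, where 0.892% of all tested genes were higher and 0.685% lower. *Srxn1* met the share limit at 0 h through the DHA library alone, at 62.8% of cells against 41.8% in Veh. In thinned cells it was at 35.4% and 25.4%, under that limit in both. At 1 h 0 genes were past the limit in either direction, with 1.07% of all genes higher and 1.48% lower, and *Prdx1* (1.44), *Gclm* (1.42) and *Srxn1* (1.39) came nearest. At 4 h 3 genes were higher (*Gclm*, *Gsr* and *Srxn1*) and 0 lower, against 1.4% and 2.31% of all genes. TMM scaling left 2 of the 3 at 4 h, and moved the split of all genes there from 78 higher and 129 lower to 41 and 173. The median log2 ratio of the 9 genes was 0.39, 0.30 and 0.36 at 0, 1 and 4 h, beside -0.04, -0.05 and 0.06 over all tested genes.

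**Figure D1:**
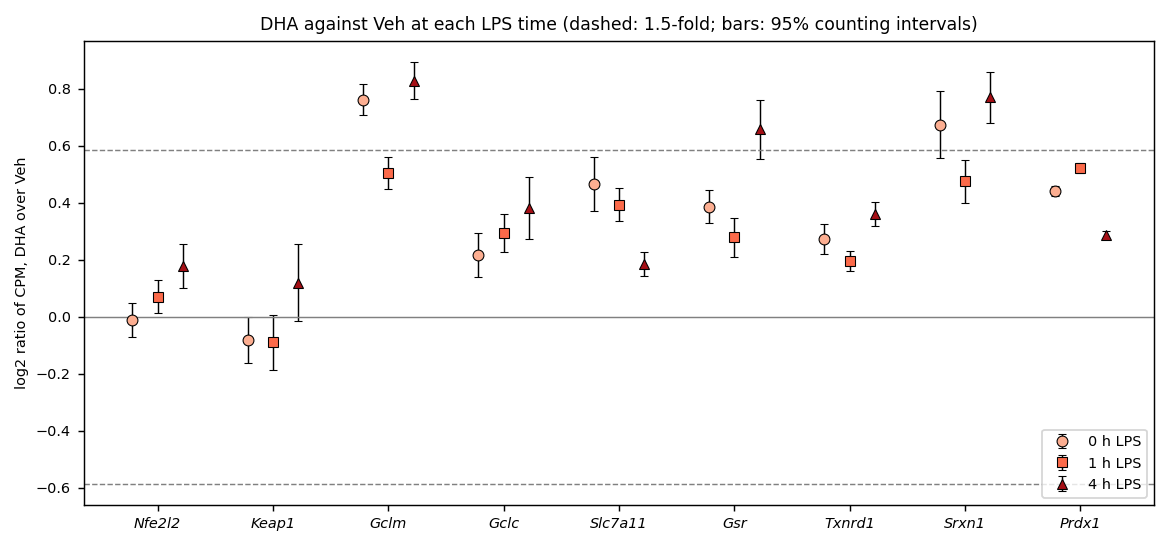
Log2 ratio of CPM in DHA over Veh (vertical axis) for 9 genes (horizontal axis) at 0, 1 and 4 h of LPS, with 95% counting intervals and dashed lines at 1.5-fold; *Nqo1* is left out because it was near 0. *Gclm* and *Srxn1* pass the upper line at 0 and 4 h and *Gsr* at 4 h, while *Nfe2l2* and *Keap1* lie around 0.

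The DHA libraries held more barcodes with a high mitochondrial share, and without any filter the ratios of DHA to Veh were smaller for 6 of the 7 genes and larger for *Slc7a11*. The median log2 ratio of all tested genes was lower as well, at -0.28, -0.32 and -0.21 at 0, 1 and 4 h. In kept cells that median was -0.04, -0.05 and 0.06. Over all deposited barcodes, with no filter, the log2 ratio of DHA to Veh at 0 h was 0.33 for *Gclm* and 0.23 for *Srxn1* in place of 0.76 and 0.67, and *Gclc* went from 0.22 to -0.03. At 1 h *Gclm* went from 0.50 to 0.05, *Srxn1* from 0.48 to 0.05 and *Gsr* from 0.28 to -0.11. At 4 h it was 0.34 for *Gclm*, 0.24 for *Gsr* and 0.24 for *Srxn1* in place of 0.83, 0.66 and 0.77, and *Gclc* and *Prdx1* went to -0.03 each. The log2 ratio of *Slc7a11* was 0.69, 0.71 and 0.58 over all barcodes in place of 0.47, 0.39 and 0.18. Only 7, 7 and 5 of the 10 genes then met the share limit at 0, 1 and 4 h, and 0, 1 (*Slc7a11*) and 0 were past 1.5-fold. Among barcodes with at least 20% mitochondrial UMIs, with levels as CPM of the non-mitochondrial UMIs, *Gclm* stood at 33.7 in Veh at 0 h against 81.4 in the kept cells, whereas *Slc7a11* stood at 92.2 against 30.7. *Slc7a11* was higher in such barcodes than in kept cells in all 7 libraries, and *Gclm*, *Gsr*, *Nfe2l2*, *Keap1*, *Prdx1* and *Srxn1* were lower in all 7. On the same scale *Gsr* in such barcodes was at 47.9 with DHA and 37.3 in Veh at 1 h, and *Prdx1* at 1927 and 1762 at 4 h. *Gclc* at 4 h (35.2 against 44.0) and *Srxn1* at 1 h (37.9 against 41.9) and 4 h (37.6 against 40.8) were lower with DHA. Otherwise the 7 genes were higher with DHA in these barcodes. The part of these barcodes in the DHA ratios was not tested beyond these values.

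Within kept cells the ratio of DHA to Veh for *Gclm* was above 1 in every bin of mitochondrial share (1.13 to 2.18) and of cycle state (1.32 to 1.91), and that of *Prdx1* varied more between bins. The value of 1.13, at 1 h in cells with 10 to under 20% mitochondrial UMIs, had an interval reaching below 1 (0.968 to 1.31). In cells with 5 to under 10% mitochondrial UMIs, which made up most of each Veh and DHA library, *Gclm* with DHA was 1.64, 1.38 and 1.66 times Veh at 0, 1 and 4 h, and *Prdx1* was 1.22, 1.20 and 1.03 times. In cells under 5%, of which there were 55 to 111 per library, *Prdx1* was 2.32, 3.47 and 2.35 times Veh and *Srxn1* 2.65, 2.28 and 2.20 times. In the same cells *Gclc* with DHA was at 0.680 times Veh at 0 h (0.522 to 0.883) and 0.858 times at 1 h (0.698 to 1.05). *Gsr* in them was at 0.935 times Veh at 1 h (0.764 to 1.14) and *Slc7a11* at 0.987 times at 4 h (0.895 to 1.09). The bin of 10 to under 20% held 51 to 210 cells per library. There *Srxn1* with DHA was 1.02 times Veh at 0 h (0.740 to 1.39), 1.30 times at 1 h and 1.75 times at 4 h. *Slc7a11* in that bin was 1.01, 1.57 and 1.03 times Veh at 0, 1 and 4 h, with intervals reaching below 1 at 0 and 4 h. Cycling differed between the libraries as well, with 364 of the 698 DHA cells and 1745 of the 2481 Veh cells at 0 h holding over 2 UMIs of *Mki67* and *Top2a* together after thinning. Among cells with at most 2 such UMIs the DHA ratio of *Gclm* was 1.72, 1.32 and 1.91 and that of *Srxn1* 1.45, 1.28 and 2.06, while among the others *Srxn1* was 1.53, 1.29 and 1.18.

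For *Slc7a11*, *Txnrd1* and *Srxn1* LPS gave larger differences than DHA at both hours, whereas *Gclm* differed more with DHA. At 1 h *Slc7a11*, *Txnrd1* and *Srxn1* were past 1.5-fold higher and 0 genes lower in Veh, against 4.38% and 2.08% of all tested genes, and the same 3 genes were higher and 0 lower in DHA, against 4.88% and 2.72%. At 4 h *Slc7a11*, *Txnrd1*, *Srxn1* and *Prdx1* were higher and *Keap1* and *Gsr* lower in both arms. The background at 4 h was wide, with 11.4% of genes higher and 32.6% lower in Veh and 9.89% higher and 29.3% lower in DHA, so the 2 lower genes of 9 lie below the share of all genes that were lower. TMM scaling turned the split of all genes from 719 higher and 2053 lower to 1526 and 1031 in Veh at 4 h, from 625 and 1851 to 1212 and 1065 in DHA at 4 h, and from 308 and 172 to 375 and 105 in DHA at 1 h. The 4 higher genes stayed past the limit in both arms under that scaling. In Veh *Srxn1* met the share limit through the LPS libraries alone, at 61.2% and 66.3% of cells against 41.8% at 0 h. The Veh and the DHA comparisons each use their own 0 h library, and each of the 0 h libraries serves at both hours.

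Several of these genes were lower in Veh at 0 h than in Con, and by more than they were higher with DHA. *Gclm* in Veh at 0 h was 0.379 times Con (0.370 to 0.389), *Txnrd1* 0.399 times (0.390 to 0.408), *Gsr* 0.545 times (0.530 to 0.560) and *Gclc* 0.646 times (0.623 to 0.669). *Gclm* and *Txnrd1* ranked 6159th and 6157th from the top of 6168 genes. Thus 0 of 9 genes were past 1.5-fold higher and 4 lower, against 7.59% and 8.92% of all tested genes, and the median log2 ratio of the 9 was -0.44 beside -0.12 over all. *Slc7a11*, *Srxn1* and *Prdx1* were at 0.830, 0.739 and 0.744 times Con. With DHA at 0 h *Gclm* (127 CPM), *Gsr* (97.6 CPM), *Txnrd1* (118 CPM) and *Gclc* (55.6 CPM) all remained under their levels in Con, while *Srxn1* (26.8 CPM) and *Slc7a11* (39.2 CPM) were above them. Less serum, added albumin and the 24 h spent in them came together in this step and cannot be told apart. Among 6 genes listed under NADPH supply, not all of which make NADPH themselves, 3 of the pentose phosphate pathway were lower in the same step. These were *G6pdx* at 0.519, *Pgd* at 0.546 and *Taldo1* at 0.597 times Con, while *Tkt* of that pathway was within the limit. *Idh1*, the cytosolic isocitrate dehydrogenase, was higher at 1.51 times Con, and came within the limit with TMM scaling (log2 ratio 0.56). *G6pdx* was also the gene whose pattern over the 7 libraries lay closest to that of *Gclm* (0.25 on the log2 scale). It differed less with DHA, at 58.5 CPM in DHA and 53.6 CPM in Veh at 0 h, beside 127 and 75.1 CPM for *Gclm*. At 1 h *G6pdx* was at 60.7 and 59.2 CPM, and at 4 h at 68.9 and 52.9 CPM.

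The other genes of these pathways, 53 in 6 lists, moved less uniformly with DHA. Of 41 that met the share limit at 0 h, 6 were past 1.5-fold higher and 0 lower, of 40 at 1 h 7 were higher and 0 lower, and of 38 at 4 h 5 were higher and 1 lower. Of all tested genes 0.892%, 1.07% and 1.4% were higher and 0.685%, 1.48% and 2.31% lower at these hours. The median log2 ratio of these lists together was 0.06, 0.07 and 0.14. Among other NRF2 targets *Hmox1*, heme oxygenase 1, was at 2.42, 2.54 and 2.58 times Veh at 0, 1 and 4 h, and the ferritin chains *Ftl1* and *Fth1* were at 1.91 and 1.74 times at 0 h. *Ftl1* has near-identical copies that could share its reads, so its count is uncertain. *Sqstm1*, the autophagy adaptor p62 that binds KEAP1, was at 1.87, 1.54 and 1.48 times Veh.

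Among genes of glutathione supply and use, *Esd*, which releases glutathione from S-formylglutathione, was at 1.63, 1.61 and 1.66 times Veh. *Gsto1*, a glutathione transferase, was at 1.43 and 1.44 times at 0 and 4 h and just past the limit at 1 h. *Abcc1*, an exporter of glutathione conjugates, was at 1.36, 1.31 and 1.30 times, within the limit. *Slc3a2*, the heavy chain that pairs with xCT, stood at 2.38 times its 0 h level in Veh at 4 h and at 1.93 times in DHA, beside 9.25 and 7.61 times for *Slc7a11*. *Cat*, catalase, was at 1.61, 1.51 and 1.53 times Veh with DHA. TMM scaling shifted log2 ratios of DHA to Veh at 4 h by -0.12, which took *Cat* within the limit at that hour. *Mafk*, a small MAF partner of NRF2, was the single gene past the limit downward, at 0.616 times Veh at 4 h.

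None of the 10 genes in the thioredoxin and peroxiredoxin list, which all met the share limit, passed 1.5-fold with DHA at any hour, and their median log2 ratio was 0.01, -0.08 and 0.00. At most 2.31% of all tested genes passed the limit in either direction at any of these hours, so nothing is read from a count of 0 in 10. This list holds *Txn1*, *Txn2*, *Txnrd2*, *Txnip*, *Glrx3* and the peroxiredoxins other than *Prdx1*. *Txn1*, cytosolic thioredoxin, was at 0.958, 0.927 and 1.01 times Veh, and *Prdx2* to *Prdx5* lay between 0.931 and 1.09 times. *Prdx6* was at 1.14, 1.06 and 1.25 times Veh. With LPS for 4 h *Prdx5* was at 1.86 times its 0 h level in Veh and 1.81 times in DHA, while *Prdx2*, *Prdx6* and *Txnip* were past the limit downward in Veh, where 32.6% of all tested genes were lower. With TMM scaling these 3 came back within it, at log2 ratios of -0.20, -0.18 and -0.47. *Sod2*, the mitochondrial superoxide dismutase, was at 4.50 and 5.47 times its 0 h level at 4 h in Veh and DHA.

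**Figure D2:**
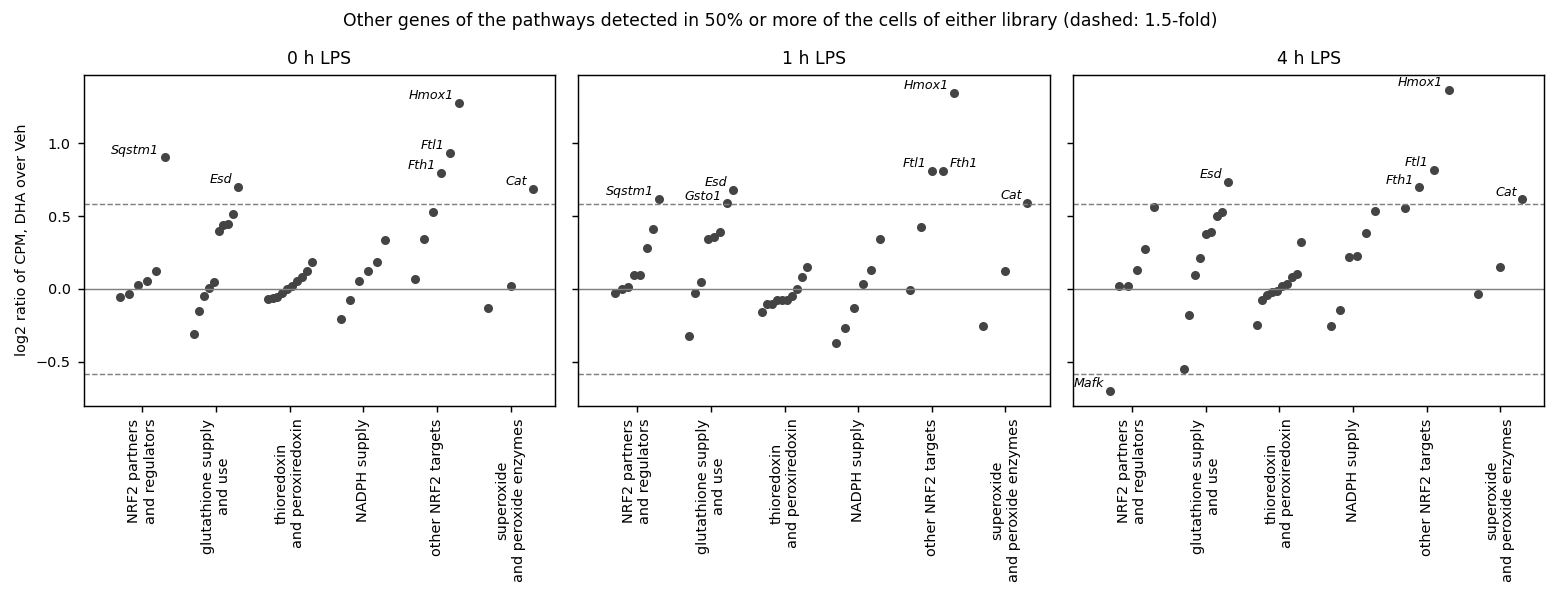
Log2 ratio of CPM in DHA over Veh (vertical axis) for the other genes of the pathways in 6 lists (horizontal axis) at 0, 1 and 4 h, showing genes detected in 50% or more of the cells in one or both libraries, with dashed lines at 1.5-fold and genes past them named. *Hmox1* stands highest at each hour with 2.42 to 2.58 times Veh, and the thioredoxin and peroxiredoxin genes gather around 0.

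Within libraries *Prdx1* had a long upper tail over cells. Its variance over thinned cells was 5.27 times the mean in Con, 12.4, 7.28 and 38.8 times in Veh and 30.0, 25.3 and 56.4 times in DHA at 0, 1 and 4 h, whereas for the other 8 covered genes this value ran from 1.02 to 4.13. The ratio of variance to mean tends to grow with the mean, and *Prdx1* had the highest level, so it does not rank the genes by how unevenly they were spread. The median cell held 23 *Prdx1* UMIs in Con, with Veh at 16, 17 and 29 and DHA at 19, 21 and 35. The highest cell held 254 to 462. The mean at 0 h was 24.5 UMIs per cell with DHA and 17.8 with Veh, a wider gap than that between the medians.

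A limit of 100 *Prdx1* UMIs per 20000 was then set, after these counts had been seen, and it cuts a continuous range with 1 to 68 cells within 20 UMIs of it in each library. Cells above it numbered 7 of 2908 in Con (0.241%, exact interval 0.0968% to 0.495%). They were 0.484%, 0.423% and 8.36% of cells in Veh and 1.58%, 2.39% and 12.1% in DHA at 0, 1 and 4 h. The exact intervals of Veh and DHA were 0.250% to 0.843% and 0.789% to 2.80% at 0 h, 0.225% to 0.722% and 1.44% to 3.71% at 1 h, and 6.71% to 10.3% and 9.80% to 14.8% at 4 h. The intervals were apart at 1 h and overlapped at 0 and 4 h, which depended on where the limit was set. They count the cells of 1 library per condition, which are not replicates, so neither outcome tests DHA against Veh. With 60 UMIs as the limit 0.685%, 1.17% and 18.9% of Veh cells and 4.15%, 5.53% and 24.9% of DHA cells were above it, and the intervals were apart at all 3 hours. With 150 UMIs 0.282%, 0.0976% and 2.72% of Veh cells and 1.00%, 1.13% and 6.65% of DHA cells were above it, and the intervals overlapped at 0 h alone. At 4 h the cells with over 100 *Prdx1* UMIs carried 28.8% of the *Prdx1* UMIs of Veh and 39.6% of those of DHA.

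**Figure D3:**
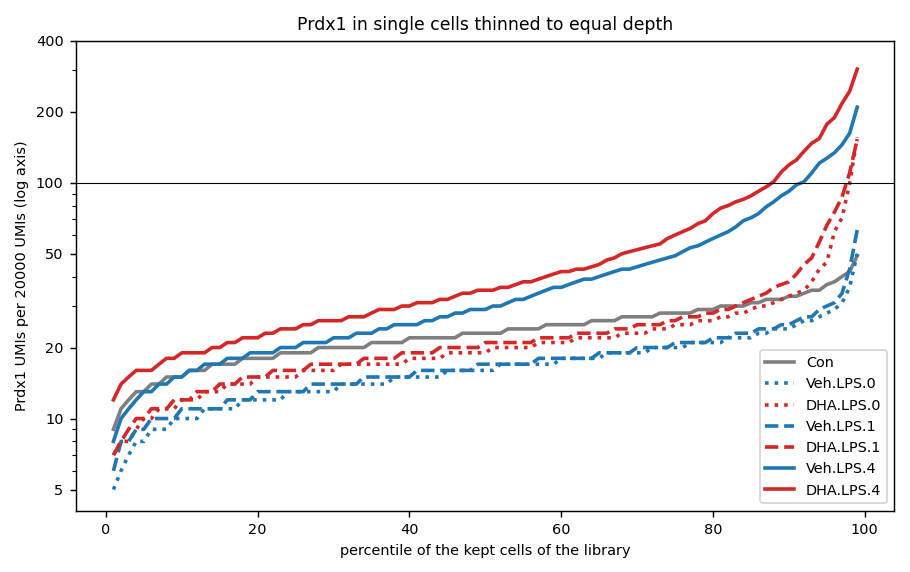
*Prdx1* UMIs per cell thinned to 20000 UMIs (vertical log axis) at each percentile of the kept cells of a library (horizontal axis), with the 100 UMI limit as a black line; grey is Con, blue Veh and red DHA, dotted at 0 h, dashed at 1 h and solid at 4 h. DHA lies above Veh of the same hour along most of the range, and at 4 h both curves cross 100 UMIs where 8.36% (Veh) and 12.1% (DHA) of cells remain.

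The cells above the limit also had more of several other NRF2 targets, and not in the 4 h libraries alone. In the other libraries, with 7 to 19 such cells each, *Srxn1* was 3.83-fold to 8.67-fold higher in them and *Gclm* 1.66-fold to 5.20-fold. *Gclc* there ran from 0.394 to 1.16 times the rest. The values below are those at 4 h. *Srxn1* stood at 167 CPM in such cells and 37.2 CPM in the rest of Veh at 4 h, 4.49-fold (3.89 to 5.17), and at 219 against 61.4 CPM in DHA, 3.57-fold (3.14 to 4.05). *Gclm* was 3.96-fold higher in Veh (3.54 to 4.43) and 3.12-fold in DHA (2.83 to 3.44), and *Txnrd1* was 2.12-fold and 1.90-fold higher. *Gclc*, *Slc7a11* and *Gsr* were between 1.15-fold and 1.57-fold higher, with the interval of *Gsr* in DHA reaching below 1, and the intervals of *Nfe2l2* and *Keap1* reached 1 in both arms. *Hmox1* was 4.57-fold higher in Veh and 4.19-fold in DHA, and *Sqstm1* stood at 1868 against 827 CPM in Veh and 2562.5 against 1222 CPM in DHA.

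These *Prdx1*-rich cells held less of the proliferation markers and, at 4 h, less *Il1b*, an inflammatory cytokine. *Il1b* had 0 UMIs in the thinned cells of Con and of both libraries at 0 h. *Mki67* stood at 21.1 CPM in them against 89.9 CPM in the rest of Veh at 4 h and at 41.1 against 154 CPM in DHA. *Il1b* was at 0.735 times the other cells in Veh (0.689 to 0.784) and 0.323 times in DHA (0.286 to 0.364). *Tnf* was at 1.12 and 0.797 times. Without LPS *Tnf* was higher in the *Prdx1*-rich cells, at 1.68 times the rest in Con, 2.59 times in Veh and 2.27 times in DHA. At 1 h it was at 0.561 times in Veh and 0.755 times in DHA. The median depth of the *Prdx1*-rich cells was 53219 UMIs against 56459 in the rest of Veh at 4 h and 27508.5 against 29998 in DHA. Their median mitochondrial share was 6.66% against 6.72% in Veh and 5.27% against 6.72% in DHA. At 0 and 1 h with DHA that share was 2.53% and 3.42% against 7.50% and 7.24% in the rest. The ratios of *Prdx1*-rich to other cells were not compared between Veh and DHA by a test, because each arm is 1 library.

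**Figure D4:**
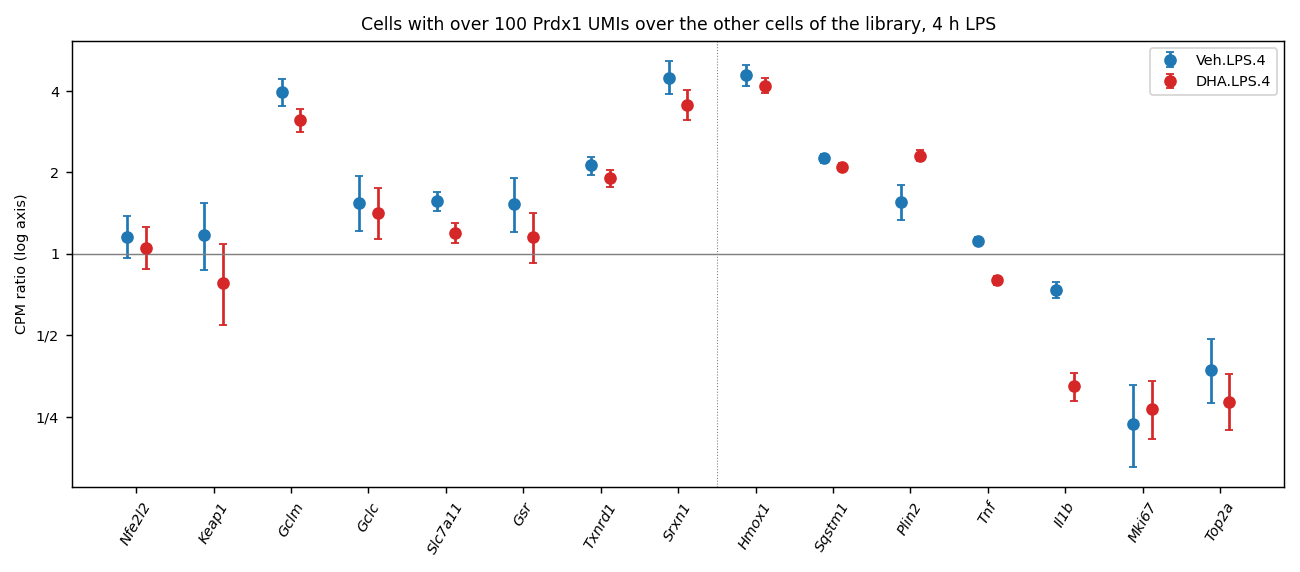
Ratio of CPM (vertical log axis) in cells with over 100 *Prdx1* UMIs to that in the other cells of the same library for 8 of the genes and, right of the dotted line, 7 further genes (horizontal axis), at 4 h of LPS in Veh (blue) and DHA (red), with 95% counting intervals. *Srxn1*, *Gclm* and *Hmox1* stand 3.12-fold to 4.57-fold above the other cells, and *Mki67* and *Top2a* lie below 1.

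Leaving out the cells above the limit lowered some ratios of DHA to Veh. These cells were picked by their *Prdx1* UMIs after the counts were seen, and held more *Srxn1* and *Gclm*. They were also a larger share of cells with DHA and at 4 h. Such falls follow at least in part from that choice and are no test. At 0 h *Srxn1* went to a log2 ratio of 0.57 and fell short of the 1.5-fold limit, so that *Gclm* alone remained past it. At 4 h *Gclm*, *Gsr* and *Srxn1* were still past the limit. The log2 ratio of *Gclm* between 4 h and 0 h of LPS turned from 0.08 to -0.19 in Veh and from 0.15 to -0.13 in DHA without these cells. These values are on the CPM scale. With all kept cells TMM scaling gave 0.51 in Veh and 0.45 in DHA, and it was not applied without the *Prdx1*-rich cells.

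The median relation between the genes over single cells was weak in every library. Over the 36 pairs of the 9 covered genes, with thinned cells, the median Spearman rho was 0.02 to 0.05 in the libraries at 0 and 1 h and in Con, 0.07 in Veh at 4 h and 0.09 in DHA at 4 h. The highest rho of a pair was 0.15 to 0.28 in the libraries at 0 and 1 h and in Con. In DHA at 4 h the pair with the highest rho was *Srxn1* with *Prdx1*, at 0.44 over 692 cells, beside 0.26 over 993 cells in Veh at 4 h, where the highest was *Slc7a11* with *Prdx1* at 0.33. *Txnrd1* with *Prdx1* was at 0.43 and 0.31, and *Gclm* with *Prdx1* at 0.40 and 0.18. *Prdx1* with *Sqstm1* was at 0.52 in DHA at 4 h and 0.23 in Veh, and *Prdx1* with *Plin2*, a lipid droplet coat gene, at 0.44 and 0.10. The cells of a library share its preparation, and rare transcripts give low values of rho in thinned counts. The summed UMIs of *Gclm*, *Gclc*, *Slc7a11*, *Gsr*, *Txnrd1*, *Srxn1* and *Nqo1* per thinned cell had a median of 14 in Con, with Veh at 6, 11 and 13 and DHA at 8, 13 and 18 after 0, 1 and 4 h.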

How the data were processed

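The authors aligned reads of 10x 3' libraries to mm10 with Cell Ranger 3.1.0, per the submitters' processing notes (the methods of the study name another version), and deposited 1 matrix of UMI counts per library. These deposited counts were used unscaled. The 10 genes, the other pathway lists and the markers were chosen with earlier results of these data known. Positions came from the RefSeq gene table of the same build. Barcodes with over 20000 UMIs, at least 2000 genes and under 20% mitochondrial UMIs were kept, as in the study. Doublets were not called, and leaving out the 5% deepest cells was an alternative. Libraries shared 1 to 22 barcodes per pair before the filter and 0 to 4 after it. UMIs were summed over kept cells and scaled to the total of the library (CPM). Levels have exact Poisson intervals, ratios exact binomial intervals and shares exact Clopper-Pearson intervals, all at 95%. They cover counting error only, since 1 library per condition allows no test. All 10 genes are named, with the other pathway genes past 1.5-fold with DHA or furthest from 1 in their list (at most 4 per list), and the 3 genes closest in pattern over the 7 libraries among those with a mean of at least 10 CPM, of which 1 is not reported here. Pathway genes beyond that rule (such as *Txn1*, *Abcc1* and *Slc3a2*) were chosen after their values were seen. Cells were thinned to 20000 UMIs with a fixed seed for shares and per-cell values. The ratio and thinning steps were tested on simulated data. Alternatives were 10000 UMIs as the limit, all barcodes, under 10% mitochondrial UMIs, TMM factors (edgeR 4.0.16), a total without mitochondrial genes, equal weight per cell, cells with at most 2 *Mki67* and *Top2a* UMIs, and no limit on the share of cells. Leaving out cells with over 100 *Prdx1* UMIs was added after seeing the data. Python 3.11.15, numpy 2.4.6 and scipy 1.17.1 were used.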

Additional observations from a re-analysis of the deposited data

Results flagged for a closer look

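*Gclm* moved in opposite directions in the Veh and DHA arms between 0 and 1 h of LPS. Its log2 ratio of 1 h to 0 h was 0.17 in Veh and -0.09 in DHA, a difference of 0.26, with counting intervals on opposite sides of 0. The difference was not tested, because each arm had 1 library per hour. With TMM scaling the log2 ratio in DHA was 0.02 and no longer opposite in sign.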

How the results depend on the processing

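No paired analysis was possible because each condition had 1 library, and for the same reason no replicate could be left out. Of 27 gene ratios past 1.5-fold in the 8 comparisons, 27 stayed past it with 10000 UMIs as the limit, under 10% mitochondrial UMIs, a total without mitochondrial genes, equal weight per cell or without the 5% deepest cells, 26 among cells with at most 2 *Mki67* and *Top2a* UMIs, 26 without cells over 100 *Prdx1* UMIs, 23 with TMM factors and 16 over all barcodes. None of the 27 changed sign in these settings. Over all barcodes the number of the 10 genes past the limit was 0 for DHA at 0 h (2 as reported), 1 at 1 h (0) and 0 at 4 h (3), and 3 for 4 h of LPS in DHA (6), where fewer genes met the share limit. It was 1 for DHA at 0 h among cells with at most 2 cycle UMIs and also without the *Prdx1*-rich cells, and 1 (*Gclm*) at 1 h without the 5% deepest cells. *Gclc* passed the limit upward at 1 h of LPS in DHA with TMM factors (log2 ratio 0.64) and among cells with at most 2 cycle UMIs (0.70). Counts over all genes moved with 2 settings. Over all barcodes they were 266 for DHA at 0 h (99 as reported) and 383 at 1 h (138), 221 and 1582 for LPS at 1 and 4 h in Veh (373 and 2772), and 174 and 556 in DHA (480 and 2476). With no limit on the share of cells they were 1411, 1639 and 1831 for DHA at 0, 1 and 4 h (207 at 4 h as reported), 3015 and 7460 for LPS in Veh, 2520 and 6054 in DHA, and 3748 for Veh against Con (1018). The cause of the moves over all barcodes was not tested. *Nqo1* had 0 to 12 UMIs per library, so no ratio of it is given.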

Other observations

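The genes whose pattern over the 7 libraries lay closest to the other members differed in how close they came. They were ranked by the root mean square difference of log2 CPM, centred on the mean of each gene, among 7297 genes. Among the closest to *Keap1* were *Mrps23*, a mitochondrial ribosomal protein gene (0.05), and *Ptrh2* (0.06). *Mrps23* stood at 68.8 CPM in Con and at 60.3 and 33.7 CPM in Veh after 0 and 4 h of LPS. The closest to *Gsr* were *Tcp11l1* (0.14), *Rab3il1* (0.15) and *Ssbp4* (0.16), and the closest to *Gclc* were *Mrps6* (0.14), *Arhgap35* (0.17) and *Fmn1* (0.18). For *Txnrd1* they were *Mat2a*, which makes S-adenosylmethionine (0.17), *Tfec* (0.20) and *Ddx5* (0.24), and for *Srxn1* they were *Noct* (0.19), *Zyx* (0.24) and *Pisd* (0.29). After *G6pdx*, *Pls3* and *2510009E07Rik* lay closest to *Gclm* (0.27 each). With 7 libraries many genes share a coarse pattern, and no test was made of these distances.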
